A study of Mus musculus with 9 samples.

Results

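Semaphorins, plexins and neuropilins form a ligand and receptor system, and 33 genes of it were measured in differentiating mouse osteoblasts, out of 19937 genes with an assigned symbol. They were chosen by gene symbol, with earlier results of these data known. They are all semaphorins (Sema), plexins (Plxn), neuropilins (Nrp) and plexin domain-containing genes (Plxdc) with a probe set assigned to 1 symbol. By class they were 7 secreted class 3 semaphorins, 6 class 4, 2 class 5 and 4 class 6 semaphorins spanning the membrane, the lipid-anchored Sema7a, 4 class A and 3 class B plexins, Plxnc1 and Plxnd1, 2 neuropilins and 2 plexin domain-containing genes. No filter on low values was applied, so all 33 entered every comparison.

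Semaphorins carry a sema domain through which they bind plexins, transmembrane receptors whose intracellular part acts on small GTPases of the Rap and R-Ras type and so on integrin adhesion and the cytoskeleton. Most class 3 semaphorins cannot bind plexins firmly alone and use neuropilins as co-receptors, which also bind vascular endothelial growth factors. The family is best known for steering axons and vessels. In bone, osteoblast lineage cells make Sema3a, which acts through Nrp1 to favor bone formation and restrain osteoclasts, whereas Sema4d made by osteoclasts restrains osteoblasts through plexin B1.

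The cells were MC3T3-E1 subclone 4, a preosteoblast line derived from mouse calvaria. All 9 cultures were infected with a lentivirus carrying a short hairpin RNA (shRNA) and sorted for green fluorescent protein. The 3 groups were proliferating cells with a scrambled hairpin (Scr day 0), cells with that hairpin after 9 days in osteogenic medium with ascorbic acid and beta-glycerophosphate (Scr day 9), and cells with a Runx2-specific hairpin after the same 9 days (shRunx2 day 9), with 3 biological replicates each and 1 array per replicate. Knockdown cells at day 0 are not among the groups, so the Runx2 hairpin was read at 1 time, in 1 clonal line, with 1 hairpin named. Runx2, the transcription factor on which osteoblast differentiation depends, is not itself analysed here. Its knockdown was therefore not verified in these array values, and the groups come from the labels. The study itself reported lower Runx2 protein and weaker alkaline phosphatase staining in cells with the Runx2 hairpin.

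Values are log2 expression from Affymetrix Mouse Gene ST arrays. A level belongs to its own probe set and is not set against another gene's, apart from ranks among all genes. By mean over the 9 arrays, called genes below the median of all genes were Sema5a (percentile 27.9), Sema3e (35.1) and Plxdc2 (41.8). Sema7a (42.8), Sema6a (44.6) and Plxnc1 (45.2) lay below it too. Whether such values stand above background was not tested. Array medians over all probe sets lay between 8.42 and 8.51. Of 9 measured osteoblast markers, 5 rose from Scr day 0 to Scr day 9 (14.5% of all genes rose). The same 5 were lower in shRunx2 than in Scr cells at day 9 (4.66% of all genes were lower). Col1a1, Col1a2, Sparc and Dlx5 passed in neither comparison. On the log2 scale, the mean linear level of the 9 osteoblast markers was 12.22 to 12.31 on the Scr day 0 arrays, 12.47 to 12.50 at Scr day 9 and 12.39 to 12.40 at shRunx2 day 9. Other cell types were followed through marker lists. In each group 10 of 11 neuron and glia and 9 of 10 endothelial markers lay below the median of all genes. So did 8 or 9 of the 9 macrophage and leukocyte markers. A linear mean is weighted toward the highest genes of a list, such as Flt1 in the endothelial and Sox9 in the chondrocyte list. The mean linear level of a list is compared between groups and not between lists. It was 8.18 to 8.24, 8.0 to 8.10 and 8.07 to 8.11 for 11 neuron and glia markers in the groups in that order, 8.36, 8.48 to 8.51 and 8.44 to 8.45 for 10 endothelial markers, and 7.95 to 7.97, 8.01 to 8.02 and 8.07 to 8.16 for 9 macrophage and leukocyte markers. Of their genes, these passed: with differentiation Tubb3 (-1.29) of the neuron list, Flt1 (0.44) of the endothelial list and Lyz2 (0.80) and Cd14 (-0.32) of the macrophage list, and in the knockdown Flt1 (-0.22) and Lyz2 (0.42). Levels of 8 chondrocyte markers were 9.76 to 9.82, 9.77 to 9.84 and 9.92 to 9.94, with Sox9 1.15-fold higher in the knockdown (adjusted p = 0.00384). Those of 8 adipocyte markers were 8.24 to 8.29, 8.38 to 8.40 and 8.40 to 8.42. For 8 skeletal muscle markers they were 8.54 to 8.66, 8.47 to 8.55 and 8.59 to 8.64. With differentiation 2 adipocyte markers rose and 1 skeletal muscle marker fell (14.5% of all genes rose and 17.1% fell). Changes ran from -0.14 to 0.38 in the adipocyte list and from -0.20 to 0.05 in the muscle list. None of these 16 genes passed in the knockdown, where 7.39% of all genes did. The part of these lists in the changes described here was not tested.

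Differentiation was examined first, with Scr day 9 against Scr day 0. Receptors and ligands both changed. The neuropilins moved in opposite directions, Plxnc1 and Plxdc1 rose, and Plxna1 fell. Among the ligands, Sema3c fell 5.79-fold, the largest change of any of the 33 genes, and Sema3e also fell, while Sema3a and Sema3b rose by smaller amounts. In all, 16 of 33 genes (48.5%) changed at an adjusted p under 0.05 in limma with Benjamini-Hochberg adjustment over all genes, against 31.6% of all 19937 genes. Of the 16, 11 rose (14.5% of all genes rose) and 5 fell (17.1% fell). At 1.5-fold or more, 7 of 33 (21.2%) changed, 3 up (2.89% of all genes) and 4 down (2.25%), against 5.14% of all genes in either direction. The groups did not overlap for 21 of 33 (63.6%), 14 higher and 7 lower at day 9, against 40.2% of all genes (18.1% higher and 22% lower). The median change was 0.07 on the log2 scale against -0.02 for all genes, and the median size of change, taken without sign, was 0.15 against 0.08. In a bulk culture, fewer cells making an RNA and less of it per cell cannot be told apart.

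**Figure D1:**
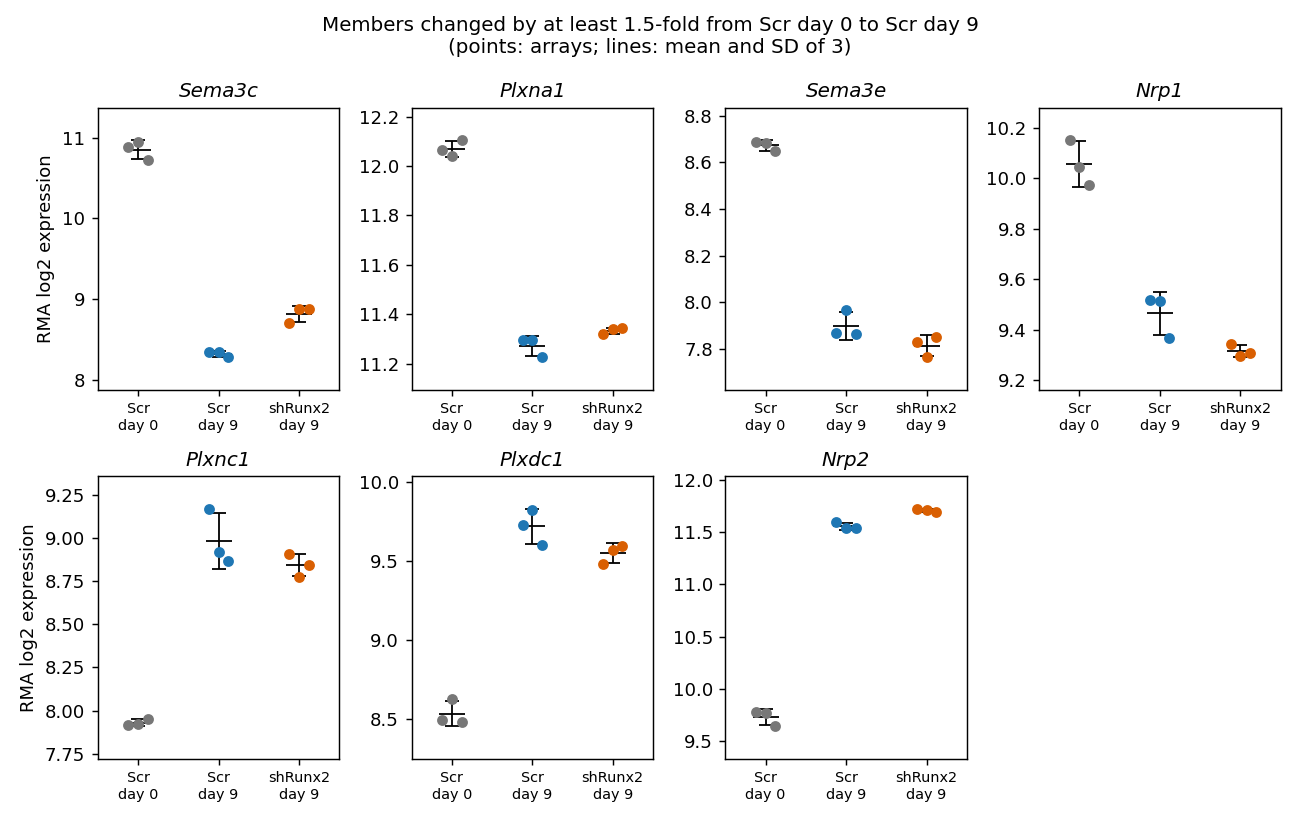
Log2 expression (vertical axis, scale set per gene) of the genes called at 1.5-fold or more between Scr day 9 and Scr day 0, in the 3 groups. Points are arrays, lines the mean and SD of 3. Nrp2, Plxnc1 and Plxdc1 were higher on all 6 day 9 arrays than at day 0, and Sema3c, Sema3e, Plxna1 and Nrp1 lower.

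Nrp2, the neuropilin that binds Sema3f and vascular endothelial growth factor C, read 9.78, 9.77 and 9.64 at Scr day 0 and 11.59, 11.54 and 11.54 at Scr day 9 (probe set 10346843). All 3 day 9 arrays were far above the day 0 arrays, a rise of 1.82 ± 0.04 on the log2 scale (SE), or 3.54-fold (adjusted p = 9.35e-11). Nrp1, which binds Sema3a and vascular endothelial growth factor A, read 10.15, 10.04 and 9.97 at day 0 and 9.52, 9.51 and 9.37 at day 9 (probe set 10576639). It was lower on every day 9 array, by 1.51-fold (-0.59 ± 0.05, adjusted p = 5.49e-06). The neuropilin RNAs thus changed in opposite directions over the 9 days.

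Class A plexins are the signaling partners of neuropilins. Plxna1 read 12.07, 12.04 and 12.10 at day 0 and 11.30, 11.30 and 11.23 at day 9 (probe set 10546184), and fell 1.74-fold (-0.80 ± 0.04, adjusted p = 1.67e-08) with no overlap between the groups. Plxna2 rose 1.12-fold, from a mean of 9.50 to 9.66 (adjusted p = 0.0315). That call ended without Scr day 0 replicate 2 or 3 (adjusted p = 0.0825 and 0.0942) or Scr day 9 replicate 1 (0.0742). Plxna3 and Plxna4 did not pass, at 0.09 ± 0.05 and -0.13 ± 0.05 (adjusted p = 0.193 and 0.0521).

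Among the other plexins, Plxnc1, a receptor of Sema7a, read 7.91, 7.92 and 7.95 at day 0 and 9.17, 8.92 and 8.86 at day 9 (probe set 10372028). All day 9 arrays were higher, with a rise of 2.08-fold (1.05 ± 0.07, adjusted p = 3.28e-07). Plxnb1, the receptor of Sema4d, rose 1.16-fold from a mean of 8.92 to 9.13 (adjusted p = 0.00111). Plxnb2, the receptor of Sema4c, fell 1.17-fold from 12.59 to 12.37 (adjusted p = 0.000399). Plxnd1, the receptor that Sema3e binds without a neuropilin, and Plxnb3 did not pass (0.12 ± 0.04 and -0.05 ± 0.05). Without Scr day 9 replicate 3, Plxnd1, Plxna3 and Plxna4 passed (adjusted p = 0.0248, 0.0345 and 0.0458).

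Plxdc1 and Plxdc2 share a stretch of sequence with plexins but lack their signaling part, and are receptors of pigment epithelium-derived factor. Plxdc1, first found in tumor endothelium, read 8.50, 8.62 and 8.48 at day 0 and 9.73, 9.82 and 9.60 at day 9 (probe set 10390519). It was higher on all day 9 arrays, by 2.27-fold (1.19 ± 0.06, adjusted p = 4.41e-08). Plxdc2 rose 1.28-fold, from a mean of 8.24 to 8.60 (adjusted p = 0.00105).

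Of the 7 class 3 semaphorins, 2 rose, 2 fell and 3 did not pass (14.5% of all genes rose and 17.1% fell). Sema3c, a ligand of both neuropilins needed for the outflow tract of the heart, read 10.88, 10.95 and 10.72 at Scr day 0 and 8.34, 8.34 and 8.28 at Scr day 9 (probe set 10519886). The groups lay more than 2 log2 units apart, a change of -2.53 ± 0.06 (adjusted p = 1.63e-10). Sema3e, a repellent of growing vessels, read 8.69, 8.68 and 8.65 at day 0 and 7.87, 7.97 and 7.86 at day 9 (probe set 10519747) and fell 1.71-fold (-0.77 ± 0.04, adjusted p = 6.55e-08). Sema3a rose 1.29-fold from a mean of 12.07 ± 0.02 (SD, n = 3) to 12.44 ± 0.02, and Sema3b, a class 3 ligand that also binds neuropilins, rose 1.35-fold from 9.73 to 10.16. The groups did not overlap for any of these 4. The other 3 did not pass: Sema3f, a repellent that binds Nrp2, was at -0.14 ± 0.05 (adjusted p = 0.0515), Sema3g at 0.15 ± 0.05 (0.0525) and Sema3d at -0.02 ± 0.04. Sema3f passed without Scr day 9 replicate 3 (0.0134), and Sema3g without Scr day 0 replicate 3 (0.0442) or Scr day 9 replicate 1 (0.024).

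Of the 13 semaphorins of classes 4 to 7, 3 changed, against 31.6% of all genes. Sema6a, a ligand of plexins A2 and A4, rose 1.42-fold from a mean of 8.28 to 8.79 (adjusted p = 8.84e-06). Sema7a rose 1.19-fold and Sema4c 1.18-fold (adjusted p = 0.011 and 0.00976). The 10 others, Sema4a, Sema4b, Sema4d, Sema4f, Sema4g, Sema5a, Sema5b, Sema6b, Sema6c and Sema6d, did not pass and lay between -0.04 and 0.08 on the log2 scale. Sema4d has another probe set on the array (10409240), which gave -0.17 where the one used here gave -0.04.

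**Figure D2:**
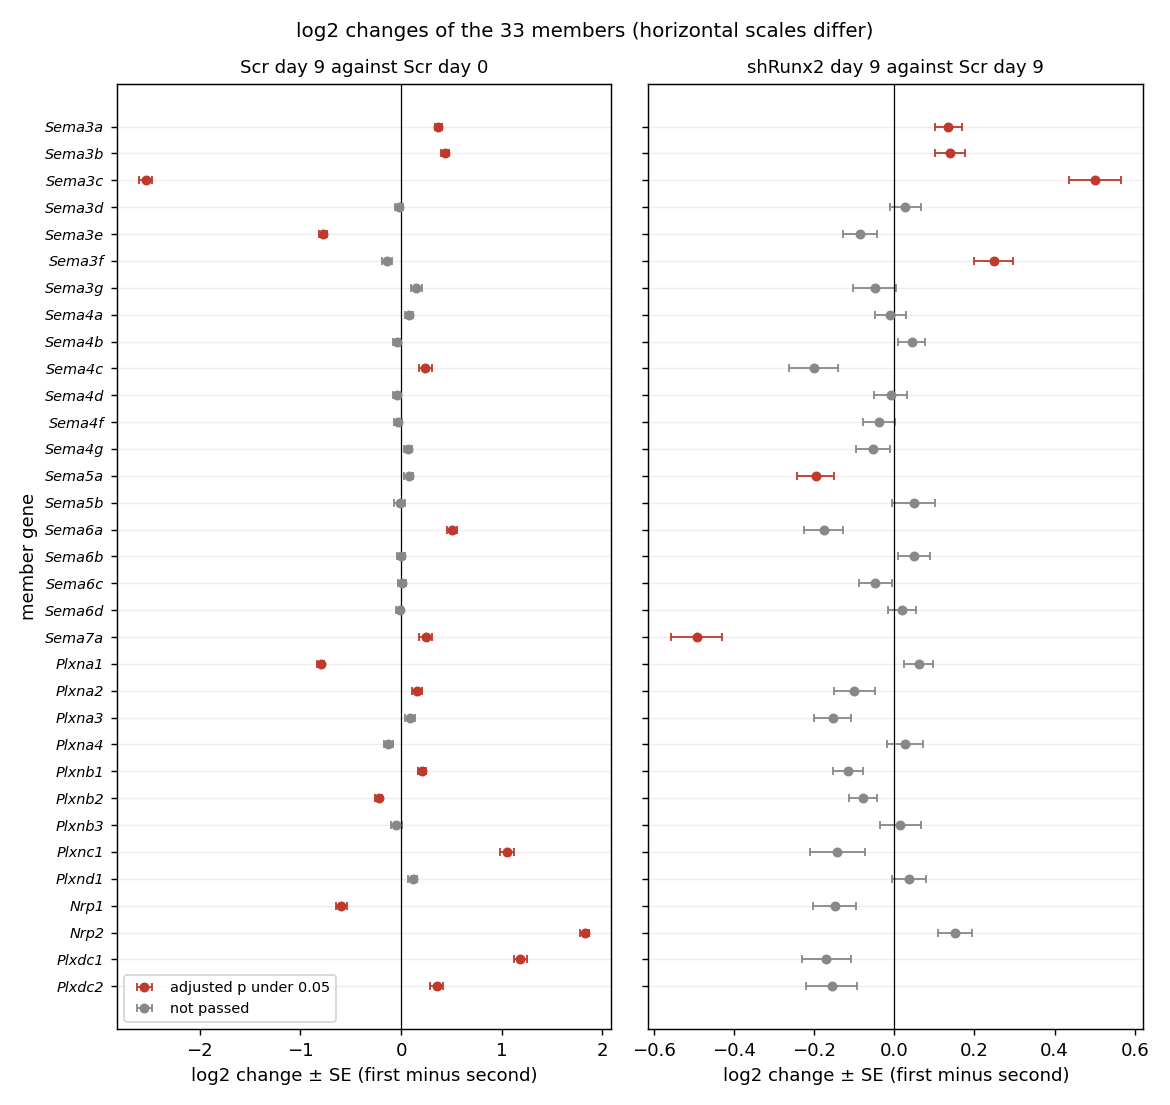
Log2 change ± SE (horizontal axis) of each of the 33 genes (rows), Scr day 9 against Scr day 0 on the left and shRunx2 day 9 against Scr day 9 on the right, on different scales. Red points passed an adjusted p of 0.05. The left panel runs from -2.53 (Sema3c) to 1.82 (Nrp2), the right from -0.49 (Sema7a) to 0.50 (Sema3c).

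The effect of Runx2 knockdown on the same genes was examined with shRunx2 against Scr cells at day 9. Of the 7 class 3 semaphorins, 4 were higher in the knockdown (2 with arrays centred on the median or on reference genes): Sema3c by 1.41-fold, Sema3f by 1.19-fold, and Sema3a and Sema3b by 1.10-fold each. Sema7a was lower by 1.41-fold and Sema5a by 1.15-fold. None of the 13 plexin, neuropilin and plexin domain-containing genes passed the test in limma, with 7 at an unadjusted p under 0.05. With weighted arrays 4 of them passed: Nrp1, Nrp2, Plxdc1 and Plxna3 (adjusted p = 0.0341, 0.0103, 0.0333 and 0.0165). The share of all genes called with weighted arrays was not counted. In all, 6 of 33 genes (18.2%) changed, against 7.39% of all genes, with 4 higher (2.73% of all genes were higher) and 2 lower (4.66%). None reached 1.5-fold, which 0.592% of all genes did (0.396% higher and 0.196% lower). At an unadjusted p under 0.05 there were 15. For that count and the 7 above, the share over all genes was not counted. The groups did not overlap for 17 of 33 (51.5%), 6 higher and 11 lower, against 23.7% of all genes (8.34% higher and 15.3% lower). The median change of the 33 was -0.04 on the log2 scale against -0.004 for all genes, and its median size 0.09 against 0.05. With arrays centred on the median of all probe sets, 2 of the 33 were higher and 4 lower, and the share of higher calls among all called genes went from 36.9% to 26.7%. With arrays centred on reference genes it went to 52.3%, and 3 of the 33 were higher and 1 lower.

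**Figure D3:**
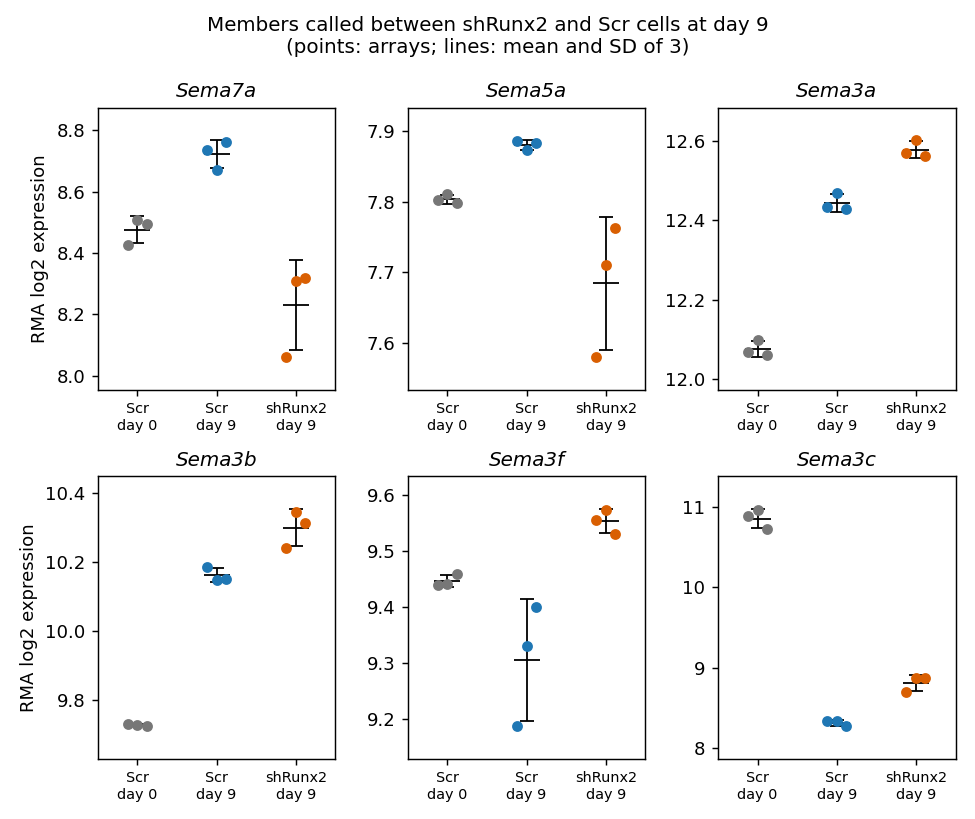
Log2 expression (vertical axis, scale set per gene) of the 6 genes called between shRunx2 and Scr cells at day 9, in the 3 groups. Points are arrays, lines the mean and SD of 3. Sema3a, Sema3b, Sema3c and Sema3f were higher on all 3 shRunx2 arrays than on any Scr day 9 array, and Sema5a and Sema7a lower.

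Sema3c read 8.70, 8.88 and 8.88 on the shRunx2 arrays against 8.34, 8.34 and 8.28 on the Scr day 9 arrays. All knockdown arrays were higher, by 0.50 ± 0.06 (adjusted p = 0.000573), and all stayed below the Scr day 0 arrays. Sema3f read 9.56, 9.57 and 9.53 in shRunx2 and 9.19, 9.33 and 9.40 in Scr cells at day 9 (probe set 10596747), a difference of 0.25 ± 0.05 (adjusted p = 0.011). The 3 knockdown arrays lay close together above the more widely spread Scr day 9 arrays. Both calls held in every alternative run.

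Sema3a, the class 3 semaphorin known from bone, read 12.57, 12.60 and 12.56 in shRunx2 and 12.43, 12.47 and 12.43 in Scr cells at day 9 (probe set 10519717), with 12.07, 12.10 and 12.06 at Scr day 0. It was higher on each knockdown array, by 0.13 ± 0.03 (adjusted p = 0.0348). Sema3b read 10.24, 10.34 and 10.31 in shRunx2 and 10.18, 10.15 and 10.15 in Scr cells at day 9 (probe set 10596680), a difference of 0.14 ± 0.04 (adjusted p = 0.0466). These differences were small and their calls unsteady. That of Sema3a ended without any 1 of the 6 day 9 arrays (adjusted p = 0.0691 to 0.106) and without Scr day 0 replicate 2 (0.0503). That of Sema3b ended without any 1 of the Scr day 9 arrays (replicates 1 to 3, 0.0666, 0.160 and 0.110), of the shRunx2 arrays other than replicate 1 (0.144 and 0.126) or of the Scr day 0 arrays (0.0546 to 0.0712). Of the 3 other class 3 semaphorins, Sema3d lay at 0.03 ± 0.04, Sema3e at -0.09 ± 0.04 and Sema3g at -0.05 ± 0.05.

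Sema7a, the lipid-anchored semaphorin that signals through plexin C1 and integrin beta 1, read 8.06, 8.31 and 8.32 in shRunx2 and 8.73, 8.67 and 8.76 in Scr cells at day 9 (probe set 10585778). All knockdown arrays were below the Scr day 9 arrays, by 0.49 ± 0.06 (adjusted p = 0.000646), and also below the Scr day 0 arrays at 8.43, 8.51 and 8.49. This call held in all 18 alternatives in which Sema7a was tested. Sema5a, a semaphorin with thrombospondin repeats, read 7.58, 7.71 and 7.76 in shRunx2 and 7.89, 7.87 and 7.88 in Scr cells at day 9 (probe set 10423520), 1.15-fold lower (-0.20 ± 0.05, adjusted p = 0.0241). The lowest value of each gene was on shRunx2 replicate 1. Without it the call of Sema5a ended (0.0665), as it did without shRunx2 replicate 2 (0.0517) or any Scr day 9 array (0.0658 to 0.0775).

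None of the receptors differed by more than 0.17 on the log2 scale in the knockdown. Nrp2 read 11.72, 11.71 and 11.69, above all Scr day 9 arrays, at 0.15 ± 0.04 (adjusted p = 0.0606), and it passed in 7 of 19 alternatives, among them the fit of the 6 day 9 arrays alone (0.0366), reference gene centring (0.0407) and the fit without Scr day 0 replicate 3 (0.026). Nrp1 read 9.34, 9.29 and 9.31, below all of them, at -0.15 ± 0.05 (0.144). The 4 class A plexins ran from -0.15 ± 0.05 (Plxna3, adjusted p = 0.0748) to 0.06 ± 0.04 (Plxna1). The class B plexins, Plxnc1 and Plxnd1 ran from -0.14 ± 0.07 (Plxnc1) to 0.04 ± 0.04 (Plxnd1). Plxdc1 and Plxdc2 were at -0.17 ± 0.06 and -0.16 ± 0.06 (adjusted p = 0.139 and 0.196). Plxna3 and Plxdc2 passed without Scr day 9 replicate 3 (0.0208 and 0.0253).

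The remaining 11 semaphorins of classes 4 to 7 did not pass. Sema4c and Sema6a lay lowest, at -0.20 ± 0.06 and -0.18 ± 0.05 (adjusted p = 0.0798 and 0.0556), with no overlap between the groups. With weighted arrays both passed (0.0227 and 0.0257), as they did with median centring (0.0456 and 0.0447). Sema4c also passed with only genes above the median expression tested (0.0349), and Sema6a without shRunx2 replicate 3 (0.0363). The other 9 lay between -0.05 and 0.05. Sema4d, the ligand of Plxnb1, was among them at -0.01 ± 0.04, and its other probe set gave 0.09.

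The number of called genes was 3 without Scr day 9 replicate 1, Scr day 9 replicate 2 or shRunx2 replicate 2, and 12 with weighted arrays. Sema3c, Sema3f and Sema7a were called in all of these. For these settings the share over all genes was not counted.

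Runx2 binds a short DNA core, and promoter sequences of the genes were searched for it. RefSeq promoters (GRCm38.p6, 250 bases before to 50 after each start) were found for 26 of the 33 genes, 37 promoters in all, and not for Plxna1, Plxna4, Plxdc1, Plxdc2, Sema3b, Sema3f and Sema6a. The core TGTGGT, or ACCACA on the other strand, stood in 5 of 37 (13.5%), against 16.8% of the promoters of all genes in that table. By gene it was 5 of 26 (19.2%) against 18.9%: Sema3a, Sema4d, Sema6d, Plxna3 and Plxnb3. Promoters of 3 of the genes called in the knockdown, the bone ligand Sema3a and the 2 genes that differed most in the knockdown, Sema3c and Sema7a, are given 5′ to 3′ on the plus strand with the core in capitals. That of Sema3a spans chr5:13396534-13396833, that of Sema3c chr5:17574566-17574865 and that of Sema7a chr9:57939862-57940161. The core of Sema3a begins 10 bases before the start, and the windows of Sema3c and Sema7a hold none. A match is a description of these letters and not evidence of binding.
Sema3a: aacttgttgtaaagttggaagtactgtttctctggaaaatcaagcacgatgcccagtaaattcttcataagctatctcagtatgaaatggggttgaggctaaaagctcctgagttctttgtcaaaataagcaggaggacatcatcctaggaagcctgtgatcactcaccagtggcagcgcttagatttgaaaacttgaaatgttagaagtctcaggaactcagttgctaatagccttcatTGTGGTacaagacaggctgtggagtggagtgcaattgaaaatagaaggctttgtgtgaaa
Sema3c: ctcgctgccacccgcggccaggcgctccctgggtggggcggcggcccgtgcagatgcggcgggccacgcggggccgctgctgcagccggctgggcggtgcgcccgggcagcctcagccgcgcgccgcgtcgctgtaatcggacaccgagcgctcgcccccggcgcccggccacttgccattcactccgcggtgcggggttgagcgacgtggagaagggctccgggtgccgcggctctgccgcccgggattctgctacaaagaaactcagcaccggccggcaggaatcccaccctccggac
Sema7a: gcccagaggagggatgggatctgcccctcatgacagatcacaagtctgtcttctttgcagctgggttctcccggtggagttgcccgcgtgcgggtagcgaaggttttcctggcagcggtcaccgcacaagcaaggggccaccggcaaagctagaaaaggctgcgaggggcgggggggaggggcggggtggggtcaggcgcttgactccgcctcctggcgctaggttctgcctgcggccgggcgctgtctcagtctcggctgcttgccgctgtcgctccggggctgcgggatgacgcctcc

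Knockdown cells at day 9 were also set against Scr day 0. That comparison shares its arrays with the other 2, so its values stand beside theirs as levels. In all, 14 of 33 genes (42.4%) changed, 8 higher and 6 lower, against 34.2% of all genes (13.8% higher and 20.4% lower). At 1.5-fold there were 7, against 5.7% of all genes, with 3 higher (2.91% of all genes) and 4 lower (2.79%). The groups did not overlap for 21 of 33 (63.6%), 12 higher and 9 lower, against 42.3% of all genes (17.7% higher and 24.6% lower). With Scr day 9 values in brackets, the change from Scr day 0 was 1.97 (1.82) for Nrp2, 1.02 (1.19) for Plxdc1 and 0.91 (1.05) for Plxnc1. It was -2.03 (-2.53) for Sema3c, -0.86 (-0.77) for Sema3e, -0.74 (-0.59) for Nrp1 and -0.74 (-0.80) for Plxna1. Each of these 7 genes lay on the same side of Scr day 0 in shRunx2 and Scr cells at day 9. They are the genes called at 1.5-fold with differentiation, and both values use the same Scr day 0 arrays. The shared side is therefore not separate support. Sema3a and Sema3b were 0.50 (0.37) and 0.57 (0.43) higher, Sema6a 0.33 (0.51) higher and Plxnb2 0.30 (0.22) lower.

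Sema7a alone was called in opposite directions, 0.25 lower in shRunx2 and 0.25 higher in Scr cells at day 9, each against Scr day 0 (adjusted p = 0.0101 and 0.011). Plxdc2 and Plxnd1 passed at 0.20 and 0.15 above Scr day 0 in shRunx2 cells. The call of Plxdc2 ended without Scr day 0 replicate 1 (0.132) or any shRunx2 array (0.0706 to 0.0923), and that of Plxnd1 without Scr day 0 replicate 3 (0.062). Both calls ended with median centring (0.117 and 0.145), and that of Plxdc2 also with quantile normalization repeated (0.102). Plxna4 and Sema3f, which did not pass, did so without Scr day 9 replicate 1 (0.0485 and 0.031), and Sema5a without shRunx2 replicate 3 (0.0225).

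Genes that work with these ligands and receptors were then counted, in lists of co-receptors, other neuropilin ligands, plexin effectors and processing proteases. During differentiation, 40 of 71 changed (56.3%, against 31.6% of all genes), 12 higher and 28 lower (14.5% and 17.1% of all genes). Their median change was -0.06 on the log2 scale. In the knockdown 10 of 71 changed (14.1%, against 7.39%), 5 higher and 5 lower (2.73% and 4.66% of all genes). Their median change was 0.001.

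**Figure D4:**
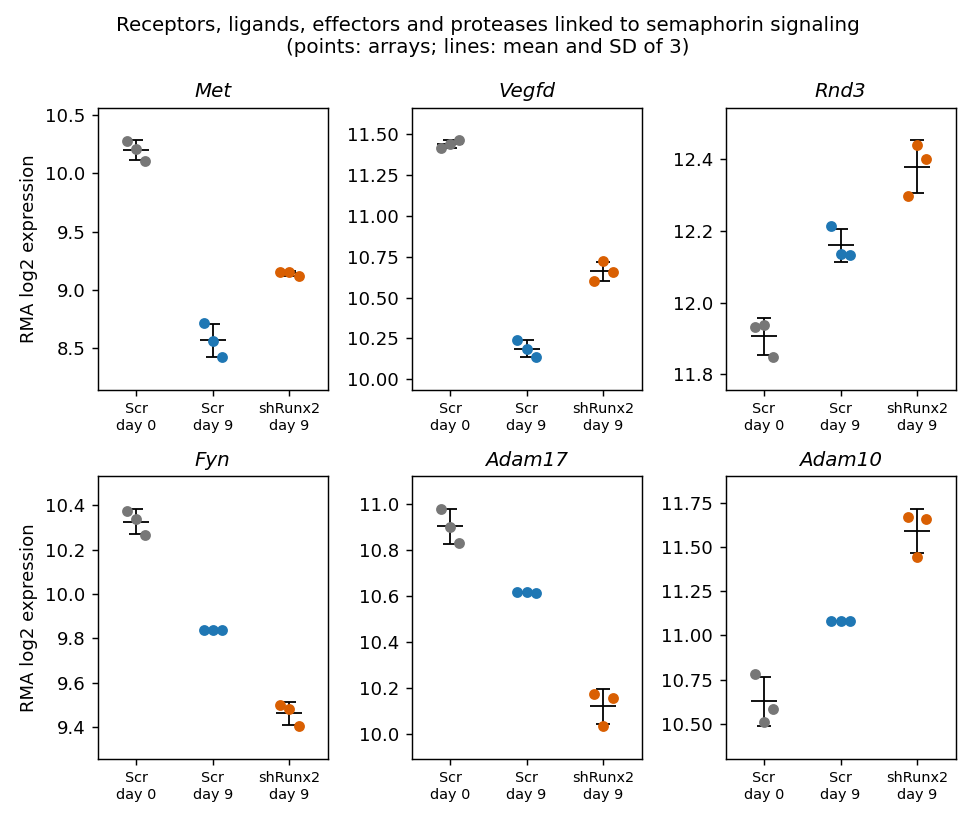
Log2 expression (vertical axis, scale set per gene) of 6 receptor, ligand, effector and protease genes called between shRunx2 and Scr cells at day 9, in the 3 groups. Points are arrays, lines the mean and SD of 3. Met, Vegfd, Rnd3 and Adam10 were higher on all 3 shRunx2 arrays than at Scr day 9, and Fyn and Adam17 lower.

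Of 18 co-receptors and alternative receptors, 1 rose and 5 fell during differentiation (14.5% of all genes rose and 17.1% fell). Met, the receptor of hepatocyte growth factor, which associates with class B plexins, read 10.28, 10.20 and 10.11 at Scr day 0, 8.71, 8.56 and 8.42 at Scr day 9 and 9.16, 9.16 and 9.12 in shRunx2. It fell 3.10-fold with differentiation (adjusted p = 7.65e-09) and was 1.49-fold higher in the knockdown (0.58 ± 0.07, adjusted p = 0.000304), with no overlap between any of the groups. Of the other partners of plexins and semaphorins, Erbb2, which binds plexin B1, fell 1.42-fold with differentiation and Itgb1, the integrin chain bound by Sema7a, 1.26-fold. Flt1, a vascular endothelial growth factor receptor that also stands in the endothelial list, rose 1.35-fold and was 1.16-fold lower in the knockdown (adjusted p = 0.00446). Itga1, an integrin chain that pairs with Itgb1, was 1.21-fold higher in the knockdown (adjusted p = 0.0381), a call that ended without replicates 1 and 2 of Scr day 0 or of shRunx2, or 2 and 3 of Scr day 9, each left out alone (up to 0.133).

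Among 8 other ligands of neuropilins and their kin, 3 rose and 2 fell with differentiation (14.5% and 17.1% of all genes). Tgfb1 rose 1.80-fold and Fgf2 1.81-fold, both growth factors of bone cells, while Vegfa fell 1.49-fold. Vegfd, a lymphatic growth factor, read 11.42, 11.44 and 11.46 at Scr day 0, 10.24, 10.18 and 10.14 at Scr day 9 and 10.60, 10.72 and 10.66 in shRunx2. It fell 2.39-fold with differentiation and was 1.39-fold higher in the knockdown (0.47 ± 0.04, adjusted p = 4.48e-05), the only one of the 8 to pass there.

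The small GTPases and their regulators, through which plexins act, were mostly lower after differentiation: 11 of 19 fell and 3 rose. Of all genes 17.1% fell and 14.5% rose. Rras2, an R-Ras relative, fell 3.58-fold, Farp1, an exchange factor bound to class A plexins, 1.53-fold, and Mras 1.49-fold, whereas Rnd2, a small GTPase, rose 1.76-fold. In the knockdown 1 of 19 passed, against 7.39% of all genes. Rnd3, a small GTPase that binds plexins, read 12.30, 12.44 and 12.40 in shRunx2 and 12.21, 12.14 and 12.13 at Scr day 9, 1.16-fold higher (adjusted p = 0.0161). That call ended when replicate 2 or 3 of either day 9 group was left out (up to 0.0748).

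Kinases and cytoskeletal effectors showed 8 of 18 lower and 2 higher with differentiation (17.1% of all genes were lower and 14.5% higher). Mical2, a relative of the actin oxidase that acts downstream of class A plexins, fell 2.50-fold and Ptk2b, a focal adhesion kinase, 1.76-fold. Src, a tyrosine kinase, fell 1.37-fold. Fyn, the tyrosine kinase that acts in Sema3a signaling, read 10.37, 10.34 and 10.26 at Scr day 0, 9.84 on each Scr day 9 array and 9.50, 9.48 and 9.40 in shRunx2. It fell 1.40-fold with differentiation and was a further 1.30-fold lower in the knockdown (adjusted p = 0.000189). Dpysl3, of the collapsin response mediator family, and Limk1, a kinase of cofilin, were 1.15-fold and 1.10-fold lower in the knockdown. The call of Dpysl3 ended when replicate 1 or 3 of either day 9 group was left out (up to 0.0921), and that of Limk1 without any 1 of the 6 day 9 arrays (up to 0.190).

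Proteases that cut semaphorins or their receptors gave 3 higher and 2 lower of 8 with differentiation (14.5% and 17.1% of all genes). Adam10 read 10.78, 10.51 and 10.58 at Scr day 0, 11.08 on each Scr day 9 array and 11.67, 11.45 and 11.66 in shRunx2. It rose 1.37-fold with differentiation and was 1.42-fold higher in the knockdown (adjusted p = 0.0013). Adam17, the related sheddase, read 10.98, 10.90 and 10.83, then 10.62, 10.61 and 10.61, and 10.17, 10.03 and 10.16 in shRunx2. It fell 1.22-fold and was 1.41-fold lower in the knockdown (adjusted p = 8.85e-05), so that these 2 sheddases moved in opposite directions in each comparison. Mmp14 and Adamts1, which act on the matrix, rose 1.31-fold and 1.24-fold with differentiation. Fyn and Adam10 had the same value on all 3 Scr day 9 arrays. Such ties were not limited to them: Sema6c (8.76) and Sema6d (7.44) each had 1 value on all 3 Scr day 0 arrays. Nrp2 at Scr day 9 and Sema3c in shRunx2 had the same value on replicates 2 and 3. Ties lower the spread within a group, and their cause was not tested.

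Other guidance families were counted in the same way. Of 46 Slit, Robo, netrin, RGM, ephrin and Eph genes with their receptors, 19 changed with differentiation (41.3%, against 31.6% of all genes). Of these 11 were higher and 8 lower (14.5% of all genes were higher and 17.1% lower). In the knockdown 5 changed (10.9%, against 7.39% of all genes), all lower (4.66% of all genes were lower). With differentiation 2 of 10 Slit and Robo family genes rose, Robo2, a Slit receptor, by 2.87-fold and Srgap3, which acts downstream of Robo, by 1.38-fold. None of the 10 passed in the knockdown, where they lay between -0.07 and 0.19 on the log2 scale. Of 15 netrin and RGM family genes, 4 rose and 4 fell, with Ntn3, a netrin, 1.58-fold and Rgma 1.28-fold higher and the netrin receptors Unc5b 1.36-fold and Neo1 1.30-fold lower.

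Unc5b read 9.23, 9.39 and 9.36 in shRunx2 and 9.67, 9.67 and 9.62 at Scr day 9, 1.25-fold lower (adjusted p = 0.00108), and Rgmb, a co-receptor of bone morphogenetic proteins, was 1.14-fold lower. Of 21 ephrins and Eph receptors, 5 rose and 4 fell with differentiation (14.5% of all genes rose and 17.1% fell). Efnb1 and Efna5, membrane ligands, rose 1.56-fold and 1.34-fold, while Efnb2, a ligand by which osteoclasts and osteoblasts contact each other, fell 1.98-fold and Epha2, a receptor, 1.32-fold. In the knockdown Efna5 was 1.24-fold, Ephb6 1.22-fold and Efnb2 1.17-fold lower. The call of Efnb2 ended without Scr day 9 replicate 2 or shRunx2 replicate 2 (up to 0.0593).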

How the data were processed

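The deposited values are log2 expression values, which the authors made from Affymetrix Mouse Gene ST arrays by RMA (robust multichip average: background correction, quantile normalization and a median polish over the probes of a probe set). The submitters' processing notes name RMA and limma. The methods mention filtering without giving the rule. Genes were named from the platform annotation: of 34760 probe sets, 21640 had 1 symbol, 1321 several and 11799 none here. Of the 19937 genes so named, 954 had more than 1 probe set and were read from the probe set of highest mean over the 9 arrays. Sema4e and some other listed genes are not analysed here.

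All 9 arrays entered 1 model of group means in limma 3.58.1 (R 4.3.3, lmFit and eBayes), with no covariate, and p values were adjusted by Benjamini-Hochberg over all genes. A gene was called, and said to rise or fall or to be higher or lower, at an adjusted p under 0.05. Groups came from the labels. No read depth exists for arrays, and 3 per group limit the precision. The script was tested on simulated data. All 33 genes are named, with every array's value for those called at 1.5-fold in any comparison or called in the knockdown. Of each other list up to 4 genes with the lowest adjusted p among those called are named per comparison. Members and lists were chosen with earlier results of these data known. Alternatives were other choices of probe set, arrays, filter, scaling, moderation and array weights, a replicate block, and leaving out each array. The check of partner genes under rescaling, the block and left-out arrays was added after seeing the data.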

Additional observations from a re-analysis of the deposited data

How the results depend on the processing

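The calls of Sema3c, Sema3f and Sema7a in the knockdown held under every alternative in which the gene was tested. So did 15 of 16 calls with differentiation (all but Plxna2) and 12 of 14 for shRunx2 day 9 against Scr day 0 (all but Plxdc2 and Plxnd1). The filter at the median expression did not test genes below it, Sema7a among them. No gene called under any setting turned sign. In the knockdown comparison 6 genes were called, 12 with weighted arrays, and 3 to 6 when 1 array was left out. The other 2 counts, 16 and 14, ranged from 13 to 22 and from 10 to 16, the lowest being with only the 16 genes above the median expression tested. Sema3a lost its call with the 6 day 9 arrays alone (adjusted p = 0.0507), median centring (0.0825) and reference gene centring (0.0523). Sema3b lost it there too (0.0816, 0.107 and 0.0662) and with every probe set tested (0.0509), and Sema5a with the 6 arrays alone (0.0636) and reference gene centring (0.0944). The causes were not tested. The median change of the 33 genes in the knockdown was negative under each scaling but positive without Scr day 9 replicate 3 (0.002). Over only the 16 genes above the median expression, a different set, it was 0.01. For shRunx2 day 9 against Scr day 0 the median change of the 33 was 0.02, and -0.05 with median centring. The share of higher calls among all genes in that comparison went from 40.4% to 24.8% with median centring and 51.4% with reference gene centring, and with differentiation from 45.9% to 34%. With the replicate number as a block, 5, 18 and 14 genes were called in the knockdown, with differentiation and against Scr day 0. The block ended the call of Sema3b (0.0738). The replicate numbers are not shown to pair the samples: deviations of same-numbered arrays correlated at -0.11 to 0.29, and 9 of 18 correlated best with their own number. Of the 15 partner and guidance genes called in the knockdown, Met, Flt1, Vegfd, Fyn, Adam17, Adam10, Unc5b, Efna5 and Ephb6 were called in all 13 settings run for them, and Rgmb lost its call with reference gene centring (0.0519), as did Dpysl3 and Limk1. The block ended the call of Limk1 too.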
